A study of Mus musculus with 25 samples.

Results

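Osteopontin, Gpnmb and the galectins were followed as 5 genes, Spp1, Gpnmb, Lgals1, Lgals3 and Lgals9, which are 5 of the 22439 gene symbols in the deposited count matrices. Each was found by its exact symbol and read in every library by deposited cell type, time point and cluster. All 5 were found, and all 5 passed the filter on low counts in the fits for microglia and for macrophages. They were chosen from earlier results of these same libraries on cell type, time and cluster, so their levels along those axes are described and not tested.

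Spp1 encodes osteopontin, a secreted phosphoprotein that binds integrins and CD44 and is made by activated microglia and macrophages. Gpnmb is a transmembrane glycoprotein of lysosomes and the cell surface, a target of the MiT/TFE factors that drive lysosome genes, and it can be shed by ADAM10. Galectins bind galactose-containing sugars on glycoproteins: galectin-1 (Lgals1) and galectin-3 (Lgals3) act outside the cell, and galectin-3 also gathers on damaged lysosomes, while galectin-9 (Lgals9) joins a pair of sugar-binding domains in one chain.

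The data are droplet 3′ UMI counts from 30958 sorted myeloid cells of mouse spinal cord, in 25 libraries. Of these, 2 followed laminectomy alone (Ctrl), and 5, 4, 7, 5 and 2 followed spinal cord injury by 1, 2, 3, 10 and 21 days, called D1, D2, D3, D10 and D21. Each library pools the cord lesion of 1 to 3 mice of 1 sex, and it is the replicate here. All mice carry Cx3cr1CreERT2, an inducible Cre at the locus of the fractalkine receptor, which myeloid cells use. In Cx3cr1CreERT2 mice all YFP+ cells were taken (12 libraries, called mixed). In Cx3cr1CreERT2:R26tdTomato mice, which add a red reporter that Cre switches on, RFP+/YFP+ cells were taken as resident (5 libraries) and RFP-/YFP+ cells as infiltrating (7 libraries). Sort and strain are therefore split alike, and the ages of the mice are not given in the labels. Each time has libraries of both sexes, but sex is not spread evenly over the sorts. The mixed libraries are female at Ctrl and D21, male at D1, D3 and D10, and of both sexes at D2. A D3 library of females is titled infiltrating but labelled RFP+/YFP+; it is called D3_conflict 1 and enters no comparison between groups, though its cells are part of the cluster sums. The label of D2_infiltrating 1 is female, while its cells carry the deposited code of the male libraries, and the label was used. The series' design text names days 1, 3, 10 and 21 but not day 2, which comes from the sample labels.

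The deposited cell type codes held 13289 microglia (42.9% of cells) and 12841 cells called macrophages, which take in monocytes (41.5%). There were also 2712 dendritic-like (8.76%) and 2116 neutrophil-like cells (6.84%). In the marker check, 9 of 9 microglia markers were high in microglia, 7 of 8 macrophage and 5 of 8 monocyte markers in macrophages, 4 of 8 dendritic markers in dendritic-like cells and 7 of 7 neutrophil markers in neutrophil-like cells. Control libraries held microglia only. The libraries held 486649 to 33204422 UMIs and were spread over 7 sequencing pools, each with only some of the times. Library labels such as D3_mixed 3 give time, sort and replicate. Cell barcodes were nearly all particular to 1 library, with 127 barcodes (254 cells) found in more than 1.

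The start of the gene is shown for Spp1 and Gpnmb, the members whose levels are described at most length, since members that move apart in time can be set beside their start regions. Both stretches come from the RefSeq promoter table on GRCm38.p6 and run on the plus strand from 250 bases before the annotated start to 20 after it. Spp1 lies at chr5:104434861-104435130 and Gpnmb at chr6:49036268-49036537; the capitals in Gpnmb mark a match to the AP-1 motif TGANTCA.

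Spp1 promoter: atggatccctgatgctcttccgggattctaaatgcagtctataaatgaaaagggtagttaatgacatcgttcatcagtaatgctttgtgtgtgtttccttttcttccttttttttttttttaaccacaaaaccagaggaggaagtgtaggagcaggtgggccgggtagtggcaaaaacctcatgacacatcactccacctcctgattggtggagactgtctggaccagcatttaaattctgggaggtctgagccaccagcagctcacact
Gpnmb promoter: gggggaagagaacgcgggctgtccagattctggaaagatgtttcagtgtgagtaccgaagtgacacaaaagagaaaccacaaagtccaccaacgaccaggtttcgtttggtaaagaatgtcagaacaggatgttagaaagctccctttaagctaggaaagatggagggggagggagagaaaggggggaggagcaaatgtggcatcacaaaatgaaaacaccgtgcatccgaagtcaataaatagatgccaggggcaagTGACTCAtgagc

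The AP-1 match of Gpnmb begins 8 bases after the RefSeq start and was the only one in the members' promoter entries, whose windows run 300 bases. That start is not the start of the Gpnmb span given below, and the match lies before the latter. Such a match is found in 7.81% of all 32851 promoter entries of that length, searched on both strands. The E-box CACGTG, found in 7.15% of all entries, had no match in the members' windows, and the Ets core GGAAG, found in 71.4%, had at least 1 in each. These are letter matches only, and nothing about binding was measured. Of the 5 genes, 4 had an entry, Spp1 with 2. On GRCm38 the genes themselves lie on chromosome 5 (Spp1, 104435118 to 104441050), 6 (Gpnmb, 49036546 to 49070929), 15 (Lgals1, 78926725 to 78930465), 14 (Lgals3, 47367751 to 47386160) and, on the minus strand, 11 (Lgals9, 78962974 to 78984946). The Spp1 span overlaps the same-strand model Gm42793, and Lgals1 has the pseudogenes Lgals1-ps1 and Lgals1-ps2, so reads of these loci may be shared in the authors' counting.

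Osteopontin was far higher in every injured than in either control microglial library. Spp1 stood at 9.83 and 18.9 CPM, UMI counts scaled to a common total, in the 2 control libraries. At D1 it stood at 18092, 38319 and 16254 CPM in the 3 mixed libraries. At D2 the mixed libraries had 24580 and 17994 CPM and the resident library 17930. At D3 Spp1 was 33902, 30968 and 33618 CPM in the mixed libraries and 27382 and 15797 in the resident ones. Resident-sorted microglia lay just below the mixed libraries of the same day at D2 and below them at D3, but above them at D10. At D10 it was 6690 and 6775 CPM in the mixed libraries and 12256 in the resident one, and at D21 the single library had 9049 CPM. The ranges of D1, D2 and D3 overlapped one another, D10 and D21 overlapped, and these late libraries all lay below every library of D1 to D3.

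As means over libraries, microglial Spp1 was 14.4 ± 6.40 CPM in Ctrl (SD, n = 2), 24222 ± 12243 on day 1 (n = 3), 20168 ± 3821 on day 2 (n = 3), 28333 ± 7482 on day 3 (n = 5) and 8573 ± 3189 on day 10 (n = 3). The fitted log2 differences from control, with standard errors, were 11.61 ± 0.69, 10.88 ± 0.67, 11.64 ± 0.68, 9.86 ± 0.65 and 10.09 ± 0.69, in the order of the 5 injury times. The controls hold few Spp1 counts, and the D1 value ran from 11.07 without Ctrl_mixed 1 to 12.45 without Ctrl_resident 1. No D1, D3 or D21 microglial library shared a sequencing pool with a control library. For D1 and D21 pool and time cannot be told apart, and D3 is tied to the controls only by D3_mixed 3, which shares a pool with D2 libraries, another of which shares one with a control.

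Gpnmb followed another course in microglia. It had 0 counts in both control libraries, whose 7451300 microglial UMIs together allow at most 0.403 CPM by a floor of 3 counts. At D1 it was 1.09, 1.42 and 4.41 CPM, and at D2 7.02 and 7.40 CPM in the mixed libraries and 5.90 in the resident one. The 7.40 is a single count among the 23 microglia of D2_mixed 2. Dendritic-like cells had 9.07 and 16.7 CPM at D1, above all D1 microglia, and 0 and 64.9 CPM at D2, on either side of D2 microglia. At D3 Gpnmb was 98.9, 87.8 and 292 CPM in the mixed and 35.7 and 47.7 in the resident libraries. At D10 it was 135 and 71.5 CPM in the mixed and 95.4 in the resident libraries, and at D21 it was 256 CPM. The ranges of D2 and D3 did not overlap, those of D3 and D10 did, and D21 lay above D10.

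Summed over libraries, microglia had 29 Gpnmb counts at D1 and 61 at D2, then 681, 1180 and 1174 from D3 on. Against the control floor these sums were at least 5.81-fold, 15.3-fold, 322-fold, 256-fold and 635-fold higher, in order of time. Without Ctrl_mixed 1, which holds most control UMIs, all 5 bounds are lower, at 0.53, 1.93, 6.33, 5.99 and 7.3 on the log2 scale. Markers of macrophages moved with Gpnmb: the summed level of the 8 macrophage markers in microglia had a median of 337 CPM in Ctrl, 515 and 552 at D1 and D2, 1367 at D3, and 2757 and 4157 CPM at the late times, with ranges of 318 to 355 CPM in Ctrl and 2000 to 3117 CPM at D10. Of the 8, 1 was at 0 in the controls. The summed 8 monocyte markers had medians of 15.6, 362, 521, 536, 273 and 247 CPM at the same times. The 9 microglia markers went the other way early, from 28313 CPM in Ctrl to 7221 at D1 and 14699 at D10. The part of these shifts in the Gpnmb and Spp1 levels was not tested.

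**Figure D1:**
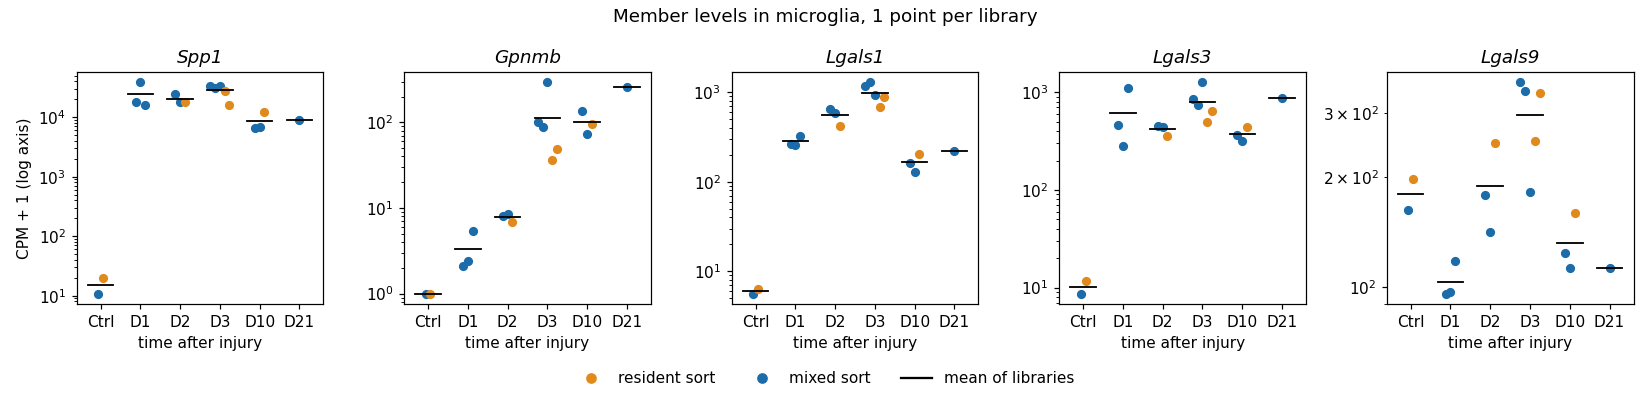
Level of each gene in microglia by time point, 1 point per library (resident and mixed sorts), on a log axis of CPM. Spp1, Lgals1 and Lgals3 in every injured library lie above both controls, Gpnmb climbs from 0 in the controls to 256 CPM at D21, and Lgals9 stays between 95.2 and 363 CPM.

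Galectin-1 in microglia was graded from control to D3, where it was highest, and was lower at D10 and D21. Lgals1 stood at 4.64 and 5.39 CPM in the controls, and at 265, 256 and 327 CPM at D1. At D2 it was 640, 592 and 423 CPM, the last in the resident library. At D3 it reached 1169, 1285 and 934 CPM in the mixed and 677 and 883 in the resident libraries. No neighbouring time points overlapped in the order Ctrl, D10, D21, D1, D2, D3: the D10 libraries had 162, 127 and 204 CPM and the D21 library 217. The fitted log2 differences from control were 6.59 ± 0.43, 7.14 ± 0.43, 8.24 ± 0.45, 5.63 ± 0.41 and 6.28 ± 0.46 in order of time. With sequencing pool as a term the D2 and D3 values were 6.83 and 7.77.

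Galectin-3 was also above control in every injured library, with overlapping levels from one time to the next. Lgals3 stood at 7.68 and 10.8 CPM in the controls, at 467, 282 and 1104 at D1, and at 446, 444 and 360 at D2. At D3 it was 862, 743 and 1261 CPM in the mixed and 496 and 635 in the resident libraries, at D10 362, 319 and 439, and at D21 865. All injured libraries lay above the controls, while neighbours in the order of their medians (D10, D2, D1, D3, D21) all overlapped. The fitted log2 differences were 6.77 ± 0.64, 5.86 ± 0.60, 7.0 ± 0.63, 5.93 ± 0.60 and 7.51 ± 0.69 from D1 to D21. The D1 value was 5.78 without cluster 2, a cluster with a low median of 1876 UMIs per cell.

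Galectin-9 was the member already present in control microglia. Lgals9 stood at 162 and 197 CPM in Ctrl, at 95.2, 96.0 and 117 at D1, and at 178, 141 and 248 at D2. At D3 it was 363, 344 and 182 CPM in the mixed and 250 and 340 in the resident libraries, at D10 123, 112 and 159, and at D21 112. Unscaled, D1, D10 and D21 lay below both controls, as did 55.6%, 58.5% and 75.5% of the 10801 genes tested at those times, a count from which nothing is read. In the fit, which scales libraries by TMM, Lgals9 differed from control by -0.11 ± 0.34 and 0.49 ± 0.33 on the first 2 days, 1.29 ± 0.32 at D3, and 0.13 ± 0.32 and 0.23 ± 0.44 at the late times.

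Over the members, 4 of 5 (all but Lgals9) had injured microglia libraries entirely above the controls at every time point. The share of all 10801 genes tested with that order was 20% at D1, 19.1% at D2 and 11%, 11.7% and 13.8% at the later times. The rule chose the genes with these values in view, so nothing is read from the difference. A median-of-ratios scaling moves the median log2 difference of all genes from -0.01 to -0.18 at D1, and the split of genes called higher and lower there from 2577 and 2457 to 2247 and 2861.

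Among infiltrating and mixed macrophages, Spp1 and Lgals3 in every D10 library lay below every D1 library, while the ranges of Lgals1, Lgals9 and Gpnmb at the 2 times overlapped. Spp1 in macrophages was 20391 and 33201 CPM in the infiltrating and 25369 and 9317 CPM in the mixed libraries at D1. At D10 it was 9030 and 4000 CPM in the infiltrating and 2603 and 1999 in the mixed libraries. These 2 groups did not overlap, but the macrophages of D10_resident 1, which are not in the fit, had 12744 CPM, within the D1 range. In between, D2 libraries had 18839 CPM (infiltrating), 35173 and 28042 (mixed), and the D3 libraries 10708 (infiltrating) and 59546 (mixed). The D21 libraries were far apart, at 506 CPM (infiltrating) and 13798 (mixed). The fitted log2 difference of D10 from D1 was -2.55 ± 0.84.

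Macrophage Lgals3 was 7178 and 7387 CPM in the infiltrating and 4233 and 4848 in the mixed libraries of D1. At D2 it was 6274, 10323 and 10055 CPM and at D3 5134 and 7658, in each case with the infiltrating library first and lowest. At D10 it was 1448, 1448, 1409 and 1305 CPM, and at D21 1142 and 1398, so each of these late libraries lay below each early one. The resident-sorted D10 library had 2428 CPM, above the other late ones and below the early ones. The D10 minus D1 difference was -2.04 ± 0.36 on the log2 scale. The share of the 8577 genes tested in macrophages whose D10 libraries all lay below D1 was 12%, and all above 9.81%; Spp1 and Lgals3 are the 2 members below.

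Lgals1 in macrophages was 1405, 1992, 1504 and 1051 CPM at D1 and 535, 536, 1141 and 1114 at D10, with the infiltrating libraries first. The D10 infiltrating libraries lay below D1, while the mixed ones lay within its range. The fitted difference was -0.85 ± 0.38, and -0.03 in the mixed libraries alone. Lgals9 was 192, 180, 186 and 117 CPM at D1 and 103, 147, 70.0 and 63.2 at D10, a difference of -0.77 ± 0.32 with overlapping ranges.

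Gpnmb was the one member whose macrophage level was higher at D10 than at D1, though the ranges overlapped. It was 635 and 332 CPM in the infiltrating and 263 and 97.3 in the mixed libraries at D1. It was 222 (infiltrating), 2045 and 1778 CPM at D2, and 1086 (infiltrating) and 4695 CPM at D3. At D10 it was 1879 and 1265 CPM in the infiltrating and 763 and 319 in the mixed libraries, and at D21 355 (infiltrating) and 1198 (mixed). The D10 minus D1 difference was 1.74 ± 0.77. At D2 and D3 the mixed libraries were several-fold above the infiltrating one, and at D10 the order was the other way round. Macrophages in resident-sorted libraries were high as well, with 1285 CPM at D2, 2548 and 2298 at D3 and 4382 at D10.

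**Figure D2:**
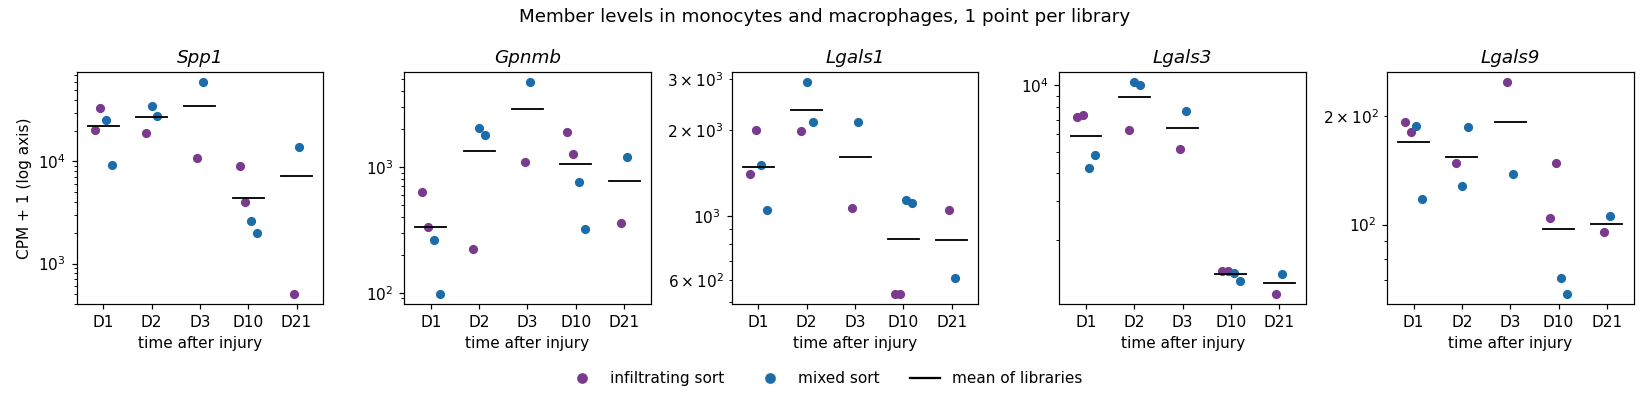
Level of each gene in macrophages by time point, 1 point per library (infiltrating and mixed sorts), on a log axis of CPM. Lgals3 falls into an early level of 4233 to 10323 CPM and a late one of 1142 to 1448 CPM, while Gpnmb at D10 (319 to 1879 CPM) overlaps D1.

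Macrophages of D1 and D10 lay mostly in different clusters. At D1, 53.9% of macrophages in these libraries lay in cluster 11, 21.1% in cluster 12 and 19.6% in cluster 8. At D3 58.9% and at D10 61.1% lay in cluster 9, and at D21 67.1% lay in cluster 3, which is made up mostly of microglia. The summed microglia markers in macrophages had a median of 698 CPM at D1, 2171 at D10 and 3554 at D21. Without the macrophages of clusters 2 and 3 the D10 minus D1 differences were -2.99 for Spp1, 1.31 for Gpnmb, -2.28 for Lgals3, -0.99 for Lgals9 and -0.98 for Lgals1, over 13 libraries. The Spp1 ranges then overlapped, with 7479 CPM in D1_mixed 3 and 9010 in D10_infiltrating 1, and those of Lgals3 did not.

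Macrophages and microglia of one library share mice, capture and sequencing, and 14 libraries held at least 20 of each. Gpnmb was higher in macrophages in 14 of 14 of them. The widest gaps were at D2, with 7.02 CPM in microglia against 2045 in macrophages in D2_mixed 1, 7.40 against 1778 in D2_mixed 2 and 5.90 against 1285 in D2_resident 1. The narrowest was D21_infiltrating 1, where 351 CPM (45 counts) and 355 CPM (241 counts) were nearly equal. The fitted difference was 4.45 ± 0.69 on the log2 scale, and the median over libraries was 5.72 at D1 to D3 (n = 8) and 2.15 at D10 and D21 (n = 6). A gene higher in macrophages in every library made up 2.58% of the 9596 tested, and one lower in every library 1.73%.

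Lgals3 was higher in macrophages in 12 of 14 libraries, with a fitted difference of 2.45 ± 0.41. The median was 3.48 at D1 to D3, where all 8 libraries had it, and 1.32 later, where D10_infiltrating 2 and D21_infiltrating 1 had the opposite order. Lgals1 was higher in macrophages in 13 of 14, by 1.63 ± 0.24, with medians of 1.76 early and 1.45 late. Spp1 was higher in macrophages in 8 of 14 and differed by -0.33 ± 0.31. Of those 8, 6 were early libraries, and the late median was -1.2 against 0.5 early; the difference between the phases was not tested. Lgals9 was higher in macrophages in 4 of 14 and differed by -0.26 ± 0.17. The microglia of the infiltrating sort are few (36 cells at D10 and 41 at D21), and they carry the highest microglial Gpnmb values, 654 and 351 CPM.

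**Figure D3:**
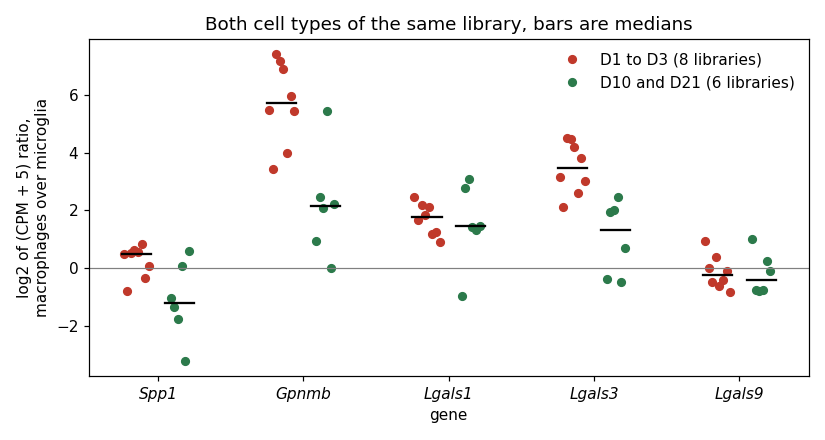
Log2 ratio of macrophage to microglial CPM (5 CPM added to both) within each of 14 libraries, for each gene, with D1 to D3 and D10 to D21 libraries marked apart. Gpnmb points are all above 0, from 0.02 to 7.41, while Spp1 points lie on both sides, from -3.2 to 0.82.

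The share of a library's UMIs of a gene follows from both the level and the makeup of the library. In D2_mixed 1 the macrophages held 17.2% of all UMIs and 98.4% of the Gpnmb UMIs, against 23.1% of the Spp1 UMIs. In D1_mixed 1 the microglia held 93.2% of the Spp1 UMIs and 93.3% of all UMIs. In other mixed libraries the Spp1 share departed from the share of all UMIs in both directions. At D10 macrophages held 4.66 and 5.85% of the Spp1 UMIs against 10.9 and 16.7% of all UMIs, and in D1_mixed 2 they held 7.07% against 3.50%.

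Dendritic-like cells had 289 to 1080 CPM of Spp1 at D1, and 0 counts among the 25 cells of D21_infiltrating 1, whose floor of 3 counts is 9.77 CPM. Their Lgals3 was 2153 and 2316 CPM at D1 and 831 at D21, and their Lgals1 894 and 1040 CPM at D1 and 710 at D21. Neutrophil-like cells had 757 and 1882 CPM of Spp1 and 61.8 and 68.6 CPM of Lgals1 at D1. Their Gpnmb counts at D1 lay in few cells: 15 of 188 in D1_infiltrating 1, where 1 cell held 44.4% of the counts, and 50 of 702 in D1_infiltrating 2, where the top cell held 7.65%. At D2 it was 2 of 223 cells in D2_infiltrating 1 and 11 of 51 in D2_mixed 2, the latter at 697 CPM. In D3_conflict 1 it was 153 of 897. Over all 19 microglial and 19 macrophage sums, 9 dendritic-like and 4 neutrophil-like ones, mean Gpnmb was 113 ± 168, 1444 ± 1324, 39.0 ± 40.5 and 227 ± 317 CPM (SD).

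Cluster sums placed Spp1, Gpnmb, Lgals1 and Lgals3 high in the same macrophage clusters 8, 9 and 11, each in its own order. These are the values the clusters were in part made from, so they are described only. Gpnmb was highest in cluster 9, at 4316 CPM over the sum of the cluster, followed by cluster 11 (1164), cluster 14 (1009) and cluster 8 (888). Spp1 was highest in cluster 9 as well, at 52362 CPM over the sum, but its libraries there ran from 1354 to 103452 CPM. Cluster 8 had 27832, cluster 11 had 26255 and cluster 5, a microglial cluster with 69.5% of its cells from D1, had 24497. By library median, Spp1 was 11548 CPM in cluster 9, below clusters 8 (24270), 11 (26049) and 5 (21309). Median Gpnmb was 1896 CPM in cluster 9, 1558 in cluster 11 and 827 in cluster 8, and 4066 over 2 libraries in cluster 14. Cluster 5 had only 24.5 CPM of Gpnmb. Cluster 12, of macrophages, held 2043 cells, 786 of them from D3_conflict 1, and had 1576 CPM of Spp1 and 91.5 of Gpnmb, and cluster 13, led by Ear2 and Ace, had 108 and 29.6. Without D3_conflict 1, an alternative chosen after seeing the data, cluster 13 had 11.6 CPM of Spp1 and 4.35 of Gpnmb, with 0 Spp1 counts in each of its 3 libraries of at least 20 cells, and cluster 12 had 1655 and 83.3.

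Among the galectins, Lgals3 over the cluster sums was highest in cluster 11 (8938 CPM), cluster 9 (6616) and cluster 8 (6391). Lgals1 was highest in cluster 8 (2243 CPM) and cluster 9 (1823). By library median, cluster 9 had 1844 CPM of Lgals3, below clusters 11 (9478), 8 (5835) and 12 (3664). It had a median of 740 CPM of Lgals1, below clusters 8 (2235) and 11 (2061). Lgals9 varied least, from 57.5 CPM in cluster 13 to 251 in cluster 11. Cluster 1, which holds control microglia alone, was lowest of the 16 clusters for Spp1 (12.1 CPM), Gpnmb (0), Lgals1 (4.83) and Lgals3 (8.45) but not for Lgals9 (171). Without D3_conflict 1, cluster 13 was lower than cluster 1 for Spp1, and cluster 10 (1822 CPM) passed cluster 9 (1798) for Lgals1. Clusters 14 and 7 rest on 118 and 67 cells.

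**Figure D4:**
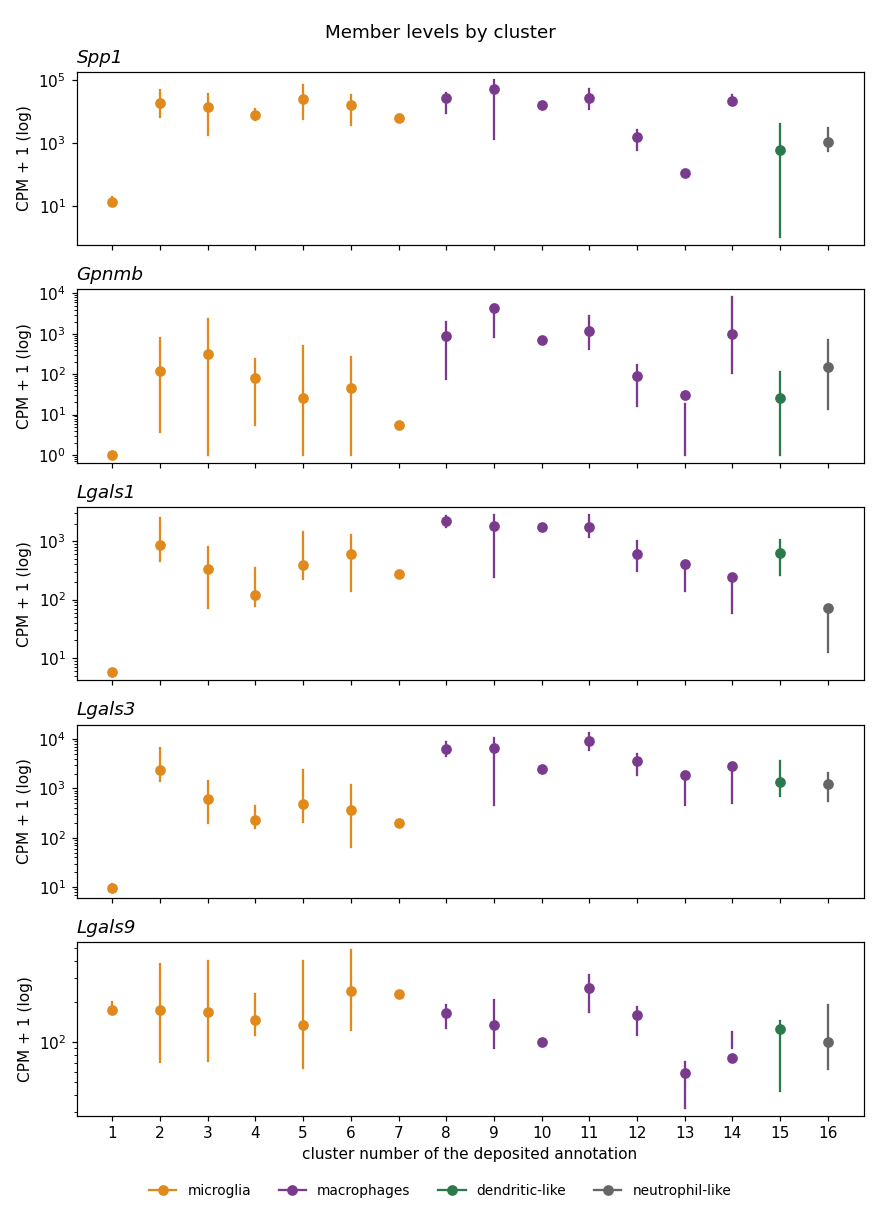
CPM of each gene in the summed cells of each of the 16 deposited clusters, on a log axis, coloured by main cell type. In these sums cluster 9 has the highest Gpnmb (4316 CPM) and Spp1 (52362 CPM), cluster 11 the highest Lgals3 and Lgals9, and cluster 1 (controls) has no Gpnmb count. By library median cluster 9 is not the highest for Spp1.

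Within a library the cells differed widely in Spp1. With each cell thinned to 1000 UMIs, 54.0 to 76.6% of D1 microglia had a Spp1 UMI, against 0.866 and 0.914% in the controls. At D3 the share was 63.2 to 76.5%, at D10 54.8 to 55.9% and at D21 69.2%. Unthinned, the D1 range was 57.1 to 78.1% and the controls 1.97 and 2.59%. In all, 6 D1 microglia had under 1000 UMIs and were left out. For comparison, 12.3 and 20.1% of neutrophil-like cells at D1 had a Spp1 UMI after thinning (14.1 and 31.9% before), with a median depth of 2015 UMIs against 3027.5 in D1 microglia. Dendritic-like cells at D1 had one in 3.33 and 7.20% (median 10796 UMIs). These neutrophil-like and dendritic-like values come from infiltrating libraries and the D1 microglia from mixed ones. They therefore do not measure the background of the microglial libraries. The top 10% of D1 microglia by Spp1 held 41.5 to 60.5% of the thinned Spp1 UMIs.

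A Gpnmb UMI was found in none of the control microglia, 0.0869 to 0.382% of D1 microglia, 0.853 to 2.83% on day 2, 4.25 to 15.7% on day 3, 5.91 to 10.6% on day 10 and 13% on day 21, thinned alike. In dendritic-like cells of the same times it was found in 0.557 and 0.804% (D1), 0 and 3.40% (D2), 0.808 and 6.46% (D3), 2.77 and 3.29% (D10) and 0.582% (D21). The D1, D10 and D21 dendritic-like values come from infiltrating libraries, while the microglial shares above come from resident and mixed ones. They therefore do not measure the background of those microglial libraries. Among libraries with at least 20 cells of both types, D3_mixed 3 had 15.7% in microglia and 6.46% in dendritic-like cells, and D2_mixed 2 had 2.83% and 3.40%. D10_infiltrating 2 had 24.6% and 3.29%, on 36 microglia, and D21_infiltrating 1 had 29.8% and 0.582%, on 41 microglia. In CPM, dendritic-like cells had 14.2 and 112 CPM of Gpnmb at D3, and 4 of the 5 microglial libraries lay below the higher value. Dendritic-like cells of D10 had 37.8 and 89.9 CPM, which overlaps microglia, and those of D21 6.51 CPM. In macrophages the share was 3.12 to 24.5% at D1 and 21.3 to 53.7% at D10, with 31.8% in D3_infiltrating 1 and 90.2% in D3_mixed 3. Unthinned, it was 10.3 to 22.2% in D10 microglia (median depth 2772 UMIs) and 6.45 and 14.3% in D10 dendritic-like cells (median 11221.5 UMIs).

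Cells with a Gpnmb UMI had more of the other members in most libraries. In microglia, over 6 libraries with enough cells of both kinds, the cells with Gpnmb had a median 2.78 times as much Spp1, 2.50 times as much Lgals3 and 1.43 times as much Lgals1 as cells without, each higher in 6 of 6 libraries. Lgals9 went the other way, at 0.695 times, and was higher in 0 of 6. The summed macrophage markers were 2.30 times as high in the same cells (6 of 6); their part was not tested. In macrophages, over 11 libraries, the ratios were 2.39 for Spp1 (higher in 10 of 11), 2.05 for Lgals3 (11 of 11), 1.41 for Lgals1 (9 of 11) and 1.28 for Lgals9 (8 of 11), with macrophage markers at 1.07 (6 of 11). Cells were thinned to equal depth, and cells of 1 library are not replicates, so these are descriptions.

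**Figure D5:**
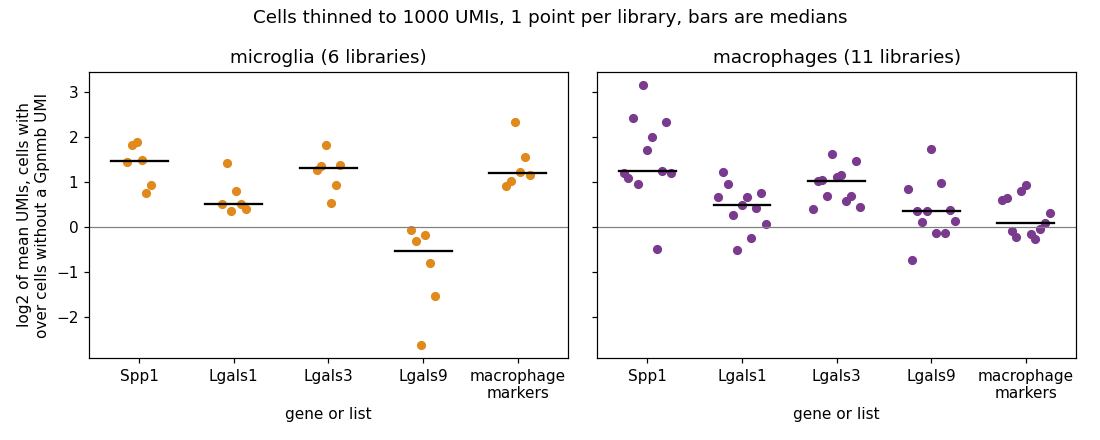
Log2 ratio of the mean UMIs of each other gene and of the macrophage marker list in cells with a Gpnmb UMI to cells without, 1 point per library, for microglia and macrophages at equal depth. The grey line marks equal means. Lgals3 lies above it in all 6 microglial and all 11 macrophage libraries, and Lgals9 lies below it in all 6 microglial ones.

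Sort and sex were not among the values that chose the genes, so they were tested across all genes with edgeR in microglia. All D1 microglial libraries are male and mixed and the D21 one is female and mixed, so neither time compares sexes or sorts. The controls differ in sex and sort together. Mixed minus resident log2 differences were 0.01 ± 0.30 for Spp1, 0.94 ± 0.49 for Gpnmb, 0.21 ± 0.20 for Lgals1, 0.19 ± 0.30 for Lgals3 and -0.30 ± 0.20 for Lgals9. All 5 had an adjusted p of 1; the smallest unadjusted p was 0.0713, for Gpnmb, and 0.148% of the 10801 genes tested passed. Male minus female differences were -0.26 ± 0.28 for Spp1, 0.59 ± 0.55 for Gpnmb, -0.09 for Lgals1, 0.09 for Lgals3 and 0.03 for Lgals9, again with adjusted p of 1. For sex 0% of the genes passed (0 of 10801 with edgeR and 0 with DESeq2, 101 at an unadjusted p under 0.05). An adjusted p that misses the threshold does not show that sorts or sexes act alike, and sort stands for strain as well.

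The receptors, relatives, processing enzymes and partners of the members were followed as a list of 45 genes, of which 44 were in the matrices and 28 passed the filter on low counts in microglia. At D1 4 of the 28 rose and 12 fell against control by edgeR's adjusted p (23.9% of all genes rose and 22.7% fell). The list's median log2 difference was -0.86, against -0.01 for all genes. At D2 4 rose and 7 fell (17.6% and 12.2% of all genes), and at D3 3 and 8 did (20.1% and 17.6%). At D10 2 rose and 2 fell (8.06% and 2.22% of all genes), and at D21 2 and 0 did (6.12% and 0.861%). Medians were -0.45, -0.18, 0.30 and 0.29, against -0.02, -0.04, -0.01 and -0.08 for all genes.

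Of the 8 osteopontin receptors tested, 2 rose and 5 fell at D1. Cd44, a receptor for osteopontin and hyaluronan, rose at every time: it stood at 3.49 ± 1.12 CPM in Ctrl (SD, n = 2) and 30.0 ± 15.8 at D1 (n = 3), 18.4 ± 2.51 at D10 (n = 3) and 22.9 at D21. Its log2 differences were 3.75 ± 0.55 at D1 (adjusted p = 5.92e-05), 2.41 ± 0.53 at D2 (0.00326) and 2.57 ± 0.53 at D3 (0.00145), then 2.89 ± 0.52 at D10 (0.00145) and 3.45 ± 0.60 at D21 (0.00133). Among the integrin subunits, Itgb3 was 22.2 ± 6.23 CPM in Ctrl and 2.42 ± 0.935 at D1. In the fit, which scales libraries by TMM as these CPM are not, it fell by 2.43 on the log2 scale (SE 0.44, adjusted p = 0.00031, edgeR). Itga9 was 37.7 ± 5.28 CPM in Ctrl and 5.88 ± 3.92 at D1, and fell by 3.16 on the log2 scale at D3 (SE 0.53, adjusted p = 0.000275, edgeR), fell by 2.92 on day 2 and fell by 2.10 at D10. Without Ctrl_resident 1 these 3 values were -4.06 (D3), -3.68 (D2) and -2.97 (D10), and without Ctrl_mixed 1 they were -2.61, -2.2 and -1.49. Itga4 fell by 3.34 at D1 (adjusted p = 0.00846, edgeR), on only 5 D1 counts, with values from -4.68 without D1_mixed 1 to -2.73 without D1_mixed 3. Itga5 rose by 1.65 at D1 and by 1.2 at D3. Itgav, the integrin subunit that osteopontin's RGD site is known for, fell by 1.95 on the log2 scale at D1 (adjusted p = 0.000872, edgeR), fell by 1.19 on day 2, fell by 1.53 on day 3 and fell by 1.24 on day 10. Its D10 call held in 10 of 17 fits with a library left out and its D2 call in 12 of 17. Cd44 at D2, Itga5 at D1 and Itgav at D1 to D3 were named after their values were seen.

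Sdc4, a syndecan that Gpnmb binds, rose at D1 from 13.2 ± 3.48 CPM in Ctrl to 269 ± 199 (log2 5.04 ± 0.65, adjusted p = 2.37e-05, edgeR). The value was 4.26 without D1_mixed 3. It rose by 2.43 on day 2, at 50.3 ± 11.7 CPM, and by 1.7 on day 3, and was 26.5 ± 3.28 CPM at D10, when it did not pass. Among the MiT/TFE factors, Tfec rose at D1 (adjusted p = 0.00305, edgeR), from 1 count in the summed controls to 71. The ratio of these summed levels was 42.7, with an exact 95% counting interval of 7.42 to 1710. Its D1 libraries ran from 1.31 to 10.9 CPM. It rose at D2 too (adjusted p = 0.00786, edgeR), on 42 counts. Other MiT/TFE factors went the other way: Tfe3 was at -2.2 ± 0.44 at D1 (adjusted p = 0.000762, edgeR) and -1.5 ± 0.45 at D2 (0.0198). Mitf was at -1.12 ± 0.29 at D1 (0.00497). At D3, 2 of the 4 factors fell and 0 rose. Tfe3 and Mitf were named after their values were seen, and their calls were not followed in the other fits. The sheddase genes Adam10 and Adam17 did not pass at any time in microglia, and of the other galectins 2 were tested and neither passed.

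Of the glycoproteins and counter-receptors that galectins bind, 5 of 11 tested fell at D1. Mertk, a receptor for engulfing dying cells, was 298 ± 19.6 CPM in Ctrl and 32 ± 7.73 at D1, unscaled. In the fit, with TMM scaling, it fell by 2.54 on the log2 scale (SE 0.54, adjusted p = 0.00108, edgeR). It fell by 1.92 on day 2 and fell by 1.95 on day 3. The D2 value was -1.24 without D2_mixed 1 and -2.64 without D2_resident 1. Lag3, an inhibitory receptor that control microglia also expressed, was 302 ± 111 CPM in Ctrl, 110 ± 10.2 at D1, 35.1 ± 22.9 at D2 and 480 ± 177 at D10, and it fell by 2.77 at D2 (adjusted p = 0.00241, edgeR) and fell by 1.75 at D3. Without Ctrl_mixed 1 the Lag3 values were -1.81 and -0.84. Cd40 rose by 2.93 at D2 (adjusted p = 0.0313, edgeR), with 5 counts in the controls and 49 at D2. It was 2.13 without Ctrl_resident 1, and the fitted value of 6.45 without Ctrl_mixed 1 is set against a control with 0 counts and is no bound. Lamp1, a lysosomal membrane protein, rose by 1.13 at D10 (adjusted p = 0.00933, edgeR) and 1.28 at D21.

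The counts of the list rest on 2 control libraries, which differ in sex, sort, strain and sequencing pool at once. Leaving 1 of them out therefore changes all of these. Without Ctrl_mixed 1 the D1 count was 12, and those of D2, D10 and D21 were each 1. The D3 count was 4 without Ctrl_resident 1. Calls over all genes dropped in the same fits: without Ctrl_mixed 1, higher and lower genes went from 2577 and 2457 to 1696 and 1678 at D1, from 1896 and 1314 to 528 and 190 at D2, from 871 and 240 to 230 and 24 at D10, and from 661 and 93 to 207 and 2 at D21. Those of D3 went from 2168 and 1896 to 1367 and 874 without Ctrl_resident 1. The drops are therefore not read as particular to the list. The calls of Sdc4, Mertk, Itgb3 and Cd44 at D1, of Itga9, Mertk and Cd44 at D3, of Itga4, Itga5 and Itgav at D1, and of Cd44 at D2, D10 and D21 held without each of the libraries in turn. Without Ctrl_mixed 1 the other named microglial calls no longer passed, except Itgav at D3, which was lost without Ctrl_resident 1. In the mixed libraries alone, which leave 1 control, Sdc4 and Mertk still passed at D1 and Cd44, Itgb3, Itga4, Itga5, Itgav and Tfec did not, with or without the replicate block. In that fit no named call of D3 or D10 passed, and with the block Mertk alone did at D3. The mixed D1, D3 and D10 libraries are all male, so with sex as a term they are tied to the female control only through D2. Over all genes the mixed libraries alone gave 994 higher and 212 lower at D1, 582 and 46 at D3 and 70 and 1 at D10. At D2 Cd44 and Sdc4 were lost there too, but passed with the block. With sequencing pool as a term the D2 calls of Tfec and Sdc4 were lost. No named D3 call held there, and Lag3 at D3 was 0.32 on the log2 scale in place of a fall. Over all genes, 254 were called higher and 1 lower at D3 in that fit.

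In macrophages at D10 against D1, 2 of 26 listed genes rose and 4 fell (7.31% and 7.04% of all genes). Spn, a sialoglycoprotein of white blood cells, rose by 2.98 ± 0.74 (adjusted p = 0.0183) and Itga4 by 2.41 ± 0.59 (adjusted p = 0.0171). Sdc4 fell by 4.09 (SE 0.67, adjusted p = 0.00247), Itga5 fell by 2.34 and Cd44 fell by 2.07, all by edgeR. Without D1_infiltrating 1 Spn was 3.68 and Itga4 3.18, and without D1_mixed 3 Sdc4 was -3.48. The count was 2, Sdc4 and Itga5 alone among the named genes, without D1_infiltrating 2, where all genes called went from 627 higher and 604 lower to 124 and 252. It was 10 in the mixed libraries alone, with 666 and 512 over all genes. Within the 14 libraries, 9 of 28 listed genes were higher in macrophages and 7 lower (15.6% and 13% of all genes), led by Spn (3.38), Cd40 (2.65) and Itga4 (2.50) above and Itgb3 (-3.82), Lag3 (-3.52) and Trem2 (-1.19) below.

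Patterns most like each member were sought among 2772 genes with a mean of at least 50 CPM. Over the 17 microglial sums, the genes closest to Spp1 were Capg (r = 0.97), Ifitm2 (0.95) and Aldoa (0.95), and those closest to Lgals1 were Fxyd5 (0.98), Capg (0.97) and Uqcrq (0.97). Lgals3 was closest to Anxa5, Plin2 and Cstb, each at 0.95. Gpnmb had other neighbours, Igf1 (0.94), Crip1 (0.93) and Fabp3 (0.93), and Lgals9 was closest to Cebpzos (0.87), Adgre1 (0.86) and Chmp5 (0.86). Among the members, Spp1 had r = 0.94 with Lgals3, 0.93 with Lgals1 and 0.41 with Gpnmb. These sums share controls that are low in most members, and the values are descriptions.

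Over the 15 macrophage sums the neighbours differed from those in microglia except for Capg. Spp1 was closest to Gabarap (0.91), Atp6v0c (0.90) and Ftl1 (0.90), and Gpnmb to Creg1 (0.91), Syngr1 (0.90) and Ctss (0.90). Lgals3 was closest to Rnh1 (0.98), Hmox1 (0.98) and Capg (0.97), Lgals1 to Psmb5 (0.95), Ubl4a (0.95) and Psmd13 (0.94), and Lgals9 to Shisa5 (0.92), Efhd2 (0.91) and Atp2b1 (0.91).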

How the data were processed

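Raw UMI counts per gene and cell were deposited by the authors, 1 table per library. Per the submitters' processing notes, Cell Ranger 3.1.0 and the genome builds GRCm38 and mm10 were used; cell filters and the handling of doublets and free RNA are not given in the sources used here. A deposited table gave each cell's cluster, cell type and sequencing pool as codes, its UMI and gene counts, and its percent of mitochondrial counts per the file headers. UMI sums equalled the deposited values for all 30958 cells, whose lowest UMI count was 713. No further cell filter, doublet caller or free RNA correction was applied. The members and all gene lists were chosen with earlier results of these data known.

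Counts were summed over the cells of 1 type in 1 library; sums of at least 20 cells entered. Microglia used 17 resident and mixed sums (135097 to 7794902 UMIs), macrophages 15 infiltrating and mixed sums (235999 to 22068469 UMIs). A library's counts measure cells pooled from few mice, so tests measure the spread between such pools, which may be technical in part, and counting floors cover counting error only. CPM were taken over each sum without TMM scaling, so their ratios need not equal the fitted log2 differences. Fits used edgeR 4.0.16 in R 4.3.3 (TMM, filterByExpr, quasi-likelihood test, time and sex as terms, or library and cell type within libraries), with Benjamini-Hochberg adjusted p-values over all genes tested, 2-sided, threshold 0.05. DESeq2 1.42.0 was an alternative, and the fits were tested on simulated data. Standard errors are those implied by the quasi-likelihood statistic. In each comparison up to 3 called list genes per direction were named, those with the largest log2 change. Patterns like a member's were ranked by Pearson's r of log2(CPM + 5). Cell types were named from marker lists, a marker counting when at 20 CPM or more and at least 2 times as high as in all other cells. Other settings are in the closing section.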

Additional observations from a re-analysis of the deposited data

Results flagged for a closer look

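Among 15 groups of 4 or 5 libraries examined for a library far from the others, 2 were picked out; chance picks out about 1 in 20. Gpnmb in microglia at D3 was 292 CPM in D3_mixed 3, apart from 35.7 to 98.9 CPM in the other libraries of that day. That library also held the most macrophages (3019), with 4695 CPM of Gpnmb, and its macrophages held 99.5% of its Gpnmb UMIs; the part of this in the microglial value was not tested. Lgals9 in macrophages at D1 was 117 CPM in D1_mixed 3, apart from 180 to 192 CPM in the other libraries. The library with conflicting sort labels, D3_conflict 1, entered no comparison between groups: its 2367 macrophages had 989 CPM of Gpnmb, 1599 of Lgals1, 7016 of Lgals3, 218 of Lgals9 and 21347 of Spp1.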

How the results depend on the processing

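Of the members' log2 values, 216 stayed within the spread between libraries under other settings and 31 moved, with 1 library left out 485 stayed and 20 moved, and of those that moved only Lgals9 at D1 changed sign, from -0.11, in the mixed libraries alone with or without the replicate block. In the mixed libraries alone, with 1 control, Spp1 against control was 12.71, 11.71, 12.97, 10.68 and 10.72 in order of time, Lgals1 7.02 at D1, 7.52 at D2 and 8.85 at D3, Lgals3 7.33 at D1 and 7.77 at D3, and Lgals9 0.69 at D1, 2.03 at D3 and 0.70 at D10. The median of all genes moved to 0.83 at D1, 0.71 at D3 and 0.59 at D10 in this fit, against -0.03 at D2 and -0.06 at D21. The mixed libraries of D1, D3 and D10 are all male and the mixed control is female. With sex as a term they are tied to it only through the D2 libraries, of which the male one holds 23 microglia. The part of this in the values was not tested. Macrophage Lgals1 and Lgals3 in the mixed libraries alone were -0.03 and -1.59. The list counts were 2 (D1), 5 (D2), 0 (D3), 0 (D10) and 10 (macrophages); over all genes 994 higher and 212 lower were called at D1, 1331 and 746 at D2, 582 and 46 at D3, 70 and 1 at D10 and 666 and 512 in macrophages. Adding the replicate block gave 12.95, 11.71, 13.31, 10.88 and 10.72 for Spp1, 7.01, 7.52 and 8.83 for Lgals1 at D1 to D3, 0.78, 2.08 and 0.68 for Lgals9 at D1, D3 and D10, and list counts of 3 (D1), 2 (D3) and 0 (D10). Same-numbered D1 and D3 mixed libraries deviated together with r = 0.01, 0.15 and 0.14, so the numbers are not treated as pairs; numbers 2 and 3 correlated best with their own. Without cluster 2 the log2 bound of Gpnmb at D1 was 1.38, Lgals3 at D1 5.78 and Lgals1 at D10 5.31. Sequencing pool as a term gave 6.83 (D2) and 7.77 (D3) for Lgals1 and list counts of 7 (D2), 1 (D3) and 11 (D10), with 1181 higher and 404 lower, 254 and 1, and 1614 and 790 over all genes, and it turned Lag3 at D3 to 0.32; it could not be separated from time at D1 and D21, or in macrophages. Without a filter the D21 list count was 1. With DESeq2 the sort difference of Spp1 was -0.01.

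With each library left out in turn, ranges were 11.07 to 12.45 (D1), 10.26 to 11.6 (D2), 11.07 to 12.42 (D3), 9.24 to 10.57 (D10) and 9.36 to 10.72 (D21) for microglial Spp1, all set by the 2 controls. The log2 bound of Gpnmb ran from 0.53 to 2.93, 1.93 to 4.13, 6.33 to 8.83, 5.99 to 8.25 and 7.3 to 8.9. Lgals3 at D1 ran from 6.05 to 7.14, Lgals1 at D3 from 8.1 to 8.6 and macrophage Lgals9 from -1.18 to -0.65. The sort difference ran from -0.21 to 0.3 for Spp1, and sex differences from -0.04 to 1.04 for Gpnmb, -0.42 to 0.1 for Lgals1, -0.21 to 0.3 for Lgals3 and -0.09 to 0.23 for Lgals9, none past the threshold. List counts ran from 12 to 19 (D1), 1 to 12 (D2), 4 to 12 (D3), 1 to 7 (D10), 1 to 3 (D21), 2 to 8 (macrophages) and 14 to 18 (within libraries). Causes were not tested. The conflicting library could not enter the within-library fit, having 8 microglia, and scaling does not act on the Gpnmb bound.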
